A study of Arabidopsis thaliana with 12 samples.

Results

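Class III peroxidase genes of Arabidopsis thaliana were followed in wild-type seedlings and in 3 mutants of methyl-CpG-binding domain (MBD) genes. Of 60 class III peroxidase loci listed for the family, 47 had a probe set assigned to 1 gene, and each of these had 1 such probe set. Another 7 loci lay on 4 probe sets that list several genes and are given apart. For the other 6 loci, RCI3, PER4, PRXCB, PA2, RHS18 and PER64, no probe set is assigned in the annotation used, and they were not analysed here. The rule for membership was the locus alone and used no measured value. The family itself was chosen with earlier results of these data known.

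The 12 arrays came from 4 groups of 3, which the labels call biological replicates: wild-type Col-0 and the T-DNA insertion mutants mbd4, mbd6 and mbd11. All were whole seedlings aged 10 days on MS medium, a standard mineral medium for plant culture. Values are log2 intensities on Affymetrix expression arrays. The comparisons ask which transcripts differ when an MBD protein, one of a family named for its likeness to the methylated-DNA-binding proteins of animals, is disrupted. Each mutant is given as 1 T-DNA genotype with no allele name, so an effect of the MBD gene and one of the line cannot be told apart. No probe set is assigned to MBD4, MBD6 or MBD11 alone, and the transcripts of the disrupted genes were not analysed here.

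Class III peroxidases are secreted haem enzymes of plants that act in the cell wall and the vacuole with hydrogen peroxide. They oxidise monolignols to radicals that couple into lignin, and they cross-link structural proteins such as extensins, both of which stiffen the wall. The same enzymes can also produce reactive oxygen that loosens it. In seedlings the family is known for work in root hairs, in the lignin ring of the root endodermis called the Casparian strip, in the vasculature and in the response to microbes.

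The 9 arrays of wild type, mbd4 and mbd6 correlated at 0.979 or above over all probe sets, while the mbd11 arrays correlated with them at 0.900 at the lowest. Among the 47 genes the median SD within a genotype was 0.12 for wild type, 0.12 for mbd4, 0.18 for mbd6 and 0.45 for mbd11. The signal gap between 3′ and 5′ control probe sets of actin, GAPDH and ubiquitin, which widens as RNA is shortened, spanned 1.75 to 2.04 on the wild-type arrays and 2.42 to 2.88 on the mbd11 arrays. It was 1.85 to 1.93 in mbd6 and 1.57, 1.70 and 2.69 in mbd4. The mbd11 arrays stood apart in the GAPDH gap, at 2.21 to 3.35 against 0.44 to 0.73 in wild type. Their actin gap was 2.51 to 3.66 against 3.30 to 3.89, and their ubiquitin gap 1.59 to 1.74 against 1.43 to 1.56. The 4 leaf markers measured of 21 listed, LHCB4.1, LHCB4.2, RCA and PRK, were all called lower in mbd11. Of all probe sets, 19.7% were called lower there, and 39.5% of those with a mean wild-type signal over 7, where all 4 markers lie. The summed intensity of the markers was 16650 to 20170 in mbd11 against 32800 to 35510 in wild type. The part of RNA quality or tissue makeup in the mbd11 differences was not tested. In whole seedlings, fewer cells of a type and less RNA per cell cannot be told apart.

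A gene was called where limma's adjusted p over all 22746 tested probe sets was below 0.05. The SE of each gene came from 1 spread shared by all genotypes. The median SD over all probe sets was 0.35 in mbd11 and 0.11 to 0.13 in the other genotypes. Where mbd11 alone scatters more, the shared SE is too small for the mbd11 differences and too large for the others. The 3 comparisons with wild type share the same wild-type arrays and are therefore not independent. In mbd4, 7 of the 47 peroxidase genes were called, 6 higher and 1 lower, which is 14.9% of them against 2.3% of all probe sets called in that comparison, where 1.53% were higher and 0.769% lower. In mbd6, 19 were called, 14 higher and 5 lower, or 40.4% against 6.91% of all probe sets, where 4% were higher and 2.91% lower. In mbd11, 15 were called, 6 higher and 9 lower, or 31.9%, which lies below the 40.2% of all probe sets called there, with 20.4% higher and 19.7% lower. These shares of all probe sets also stand beside the counts by role group and the calls in other gene lists below.

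The median difference of the 47 genes from wild type was 0.05 in mbd4, 0.22 in mbd6 and -0.04 in mbd11. The same medians over all probe sets were -0.03, -0.03 and 0.12. When each array was centred on its median, the mbd11 medians moved to 0.06 for the 47 genes and 0.22 for all probe sets, and quantile normalisation gave -0.14 and 0.02. The median of the 47 genes in mbd11 was thus on either side of 0 under these scalings and below that of all probe sets under each. The arrays of mutant and wild type did not overlap for 25 of the 47 genes in mbd4, for 32 in mbd6 and for 15 in mbd11, where 28.5%, 36.1% and 47.7% of all probe sets did not overlap. Over the 3 mutants, 27 of the 47 genes were called at least once and 20 were not called in any, beside 43.2% and 56.8% of all probe sets. Leaving out single arrays moved the number of calls between 4 and 11 in mbd4, between 12 and 27 in mbd6 and between 10 and 19 in mbd11. The counts of 11 and 27, beside 6.44% and 13.9% of all probe sets, came without mbd11 replicate 2, an array of neither group compared that enters the spread shared by all 12 arrays in the fit. The lowest counts fell without wild-type replicate 1 or 3, or mbd4 replicate 2 or 3, in mbd4 (4 calls each, beside 1.14% to 1.37% of all probe sets), and without wild-type replicate 1 or 3 in mbd6 (12 each, beside 3.55% and 3.78%). In mbd11 the count was 10 without wild-type replicate 3 and 19 without mbd11 replicate 3, beside 30.4% and 47.3% of all probe sets.

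**Figure D1:**
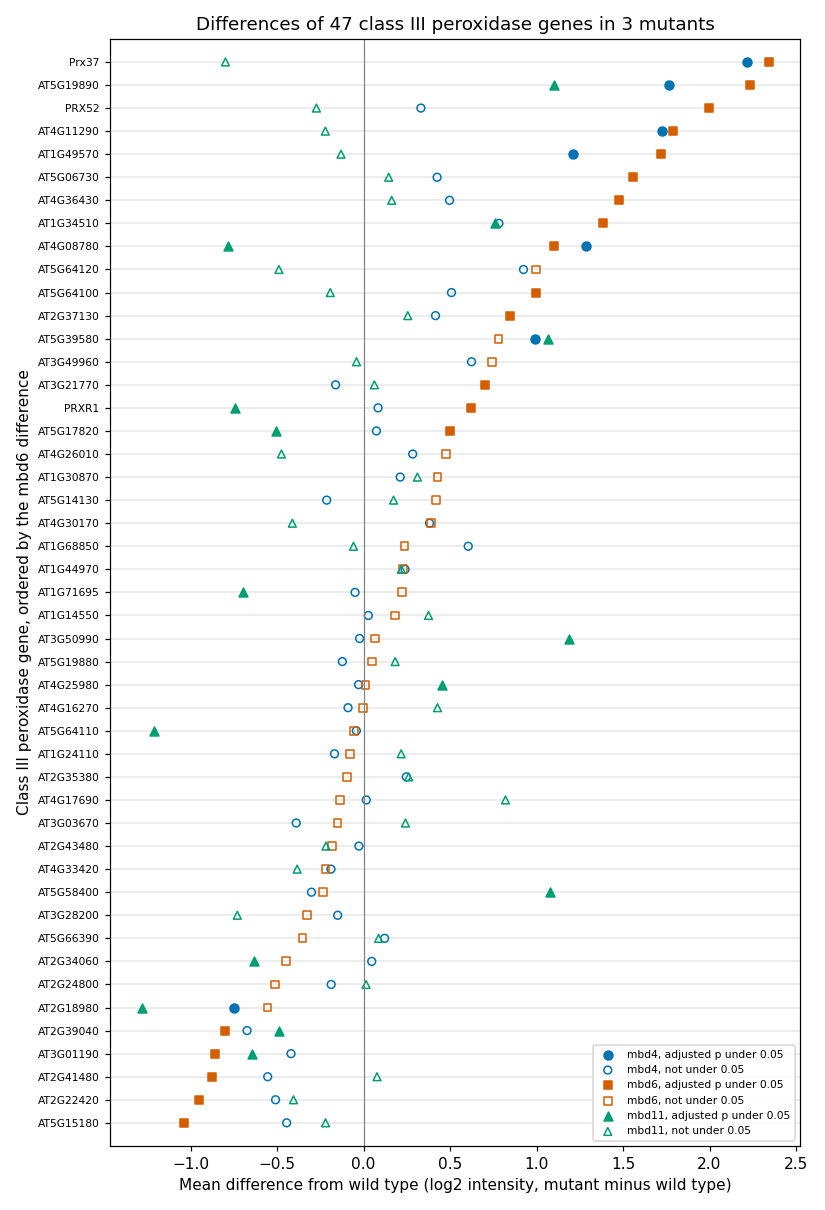
Mean difference from wild type in log2 intensity (horizontal axis) for each of the 47 peroxidase genes (vertical axis, ordered by the mbd6 difference) in mbd4 (circles), mbd6 (squares) and mbd11 (triangles). Filled symbols mark an adjusted p under 0.05, which 7 genes reached in mbd4, 19 in mbd6 and 15 in mbd11, and the mbd4 and mbd6 symbols of Prx37, AT5G19890, AT4G11290 and AT1G49570 lie together at the right.

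Prx37 (AT4G08770), a peroxidase of vascular tissue whose overexpression is known to stunt growth, had the largest difference of the family in both mbd4 and mbd6. Prx37 read 6.14, 6.35 and 6.27 on the wild-type arrays, 8.39, 8.43 and 8.59 on those of mbd4, 8.64, 8.61 and 8.53 on those of mbd6, and 4.36, 5.61 and 6.39 on those of mbd11. All 6 arrays of mbd4 and mbd6 lay above all wild-type arrays with a wide gap, and the mbd11 arrays scattered from far below wild type to its upper edge. Prx37 rose by 2.22 (SE 0.36, adjusted p = 0.00483) in mbd4, or 4.66-fold, and by 2.34 (SE 0.36, adjusted p = 0.00165) in mbd6, or 5.07-fold. In mbd11 the difference was -0.80 (SE 0.36, adjusted p = 0.0896), -1.27 with adjusted p = 0.00351 without mbd11 replicate 3, and -0.25 with adjusted p = 0.304 without mbd11 replicate 1.

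The other 2 genes grouped with Prx37 for known roles in wall structure behaved differently. AT3G50990, known from the mucilage of the seed coat, read 3.67, 3.31 and 3.74 on the wild-type arrays, 3.61, 3.495 and 3.55 on those of mbd4, 3.65, 3.80 and 3.47 on those of mbd6, and 4.84, 5.65 and 3.79 on those of mbd11. Its probe set was dim in wild type, mbd4 and mbd6, with overlapping arrays, and every mbd11 array lay above every wild-type array, with a wide scatter. It rose by 1.19 (SE 0.34, adjusted p = 0.0143) in mbd11, and its differences were -0.02 in mbd4 and 0.07 in mbd6. The mbd11 value was 0.74 without mbd11 replicate 2, the call was lost when wild-type replicate 2 was left out (adjusted p = 0.0579), and raising values under 4 to 4 gave 0.83 with adjusted p = 0.0868. AT4G16270, a target of the transcription factor UPB1 also known from anthers, was not called in any mutant, with differences from -0.09 to 0.43. Its mbd11 difference was 0.65 with adjusted p = 0.0394 without mbd11 replicate 3 and 0.12 with adjusted p = 0.594 without mbd11 replicate 2.

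Of the 3 measured genes known for lignin of the Casparian strip, 1 was called, in mbd4 and in mbd6. AT4G11290, which is also a target of UPB1, read 5.97, 5.87 and 5.75 on the wild-type arrays, 7.49, 7.49 and 7.80 on those of mbd4, 7.39, 7.75 and 7.82 on those of mbd6, and 5.05, 6.05 and 5.82 on those of mbd11. Its mbd4 and mbd6 arrays stood together above wild type with no overlap, and its mbd11 arrays spread around wild type. It rose by 1.73 (SE 0.23, adjusted p = 0.0012) in mbd4, or 3.31-fold, and by 1.79 (SE 0.23, adjusted p = 0.000448) in mbd6, or 3.46-fold. The mbd11 difference was -0.22 (SE 0.23, adjusted p = 0.439).

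AT1G44970 and AT5G66390 (PRX72), the other measured Casparian strip peroxidases, were not called in any mutant. AT5G66390 read 6.83, 6.95 and 6.69 on the wild-type arrays, 6.90, 6.91 and 7.02 on those of mbd4, 6.42, 6.56 and 6.43 on those of mbd6, and 7.25, 6.34 and 7.14 on those of mbd11. Its mbd6 arrays all lay below wild type, at a difference of -0.35 (SE 0.20, adjusted p = 0.465), while the other mutants overlapped wild type. The mbd11 difference was 0.09 (SE 0.20, adjusted p = 0.741), and -0.08 without mbd11 replicate 1. Its differences without mbd11 replicate 2 were -0.35 with adjusted p = 0.0415 in mbd6 and 0.37 with adjusted p = 0.0215 in mbd11. AT1G44970 differed from wild type by 0.24, 0.23 and 0.22 in mbd4, mbd6 and mbd11.

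**Figure D2:**
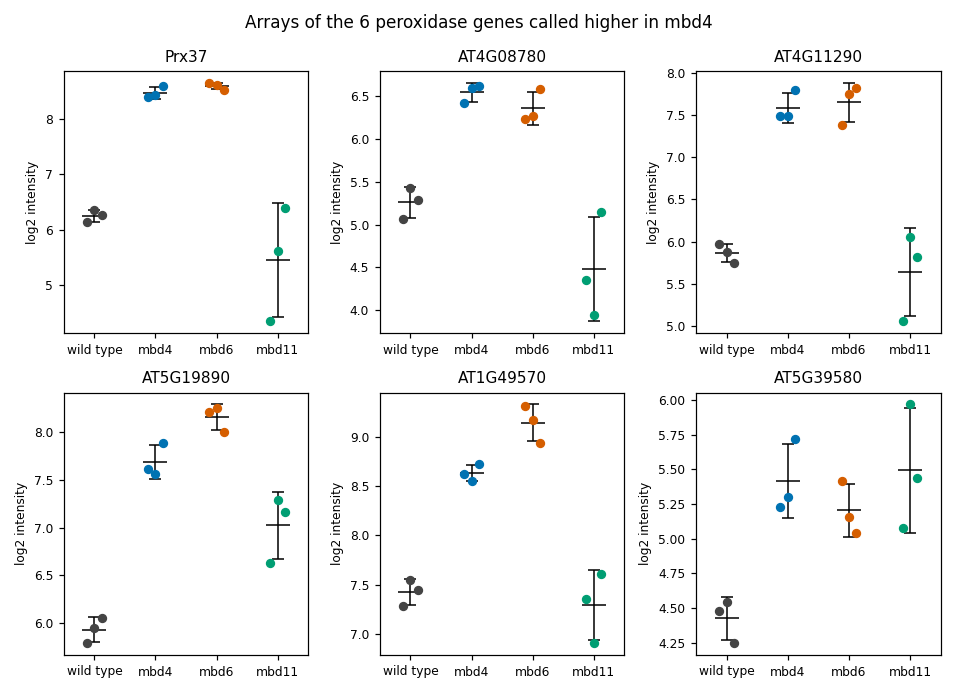
Log2 intensity (vertical axis, scaled for each panel) of each array (points), with group mean and SD (bars, n = 3), for the 6 genes called higher in mbd4, by genotype (horizontal axis). For Prx37, AT4G11290, AT5G19890 and AT1G49570 the mbd4 and mbd6 arrays lie above every wild-type array, and for AT5G19890 and AT5G39580 the mbd11 arrays do too.

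Of the 3 genes known for lignin of stems and fibres, all were called in mbd6, 1 higher and 2 lower, and none in mbd4 or mbd11. PRX52 (AT5G05340), which acts in the lignin of interfascicular fibres, read 5.98, 5.73 and 5.53 on the wild-type arrays, 5.94, 6.18 and 6.11 on those of mbd4, 8.004, 7.63 and 7.59 on those of mbd6, and 6.15, 4.79 and 5.48 on those of mbd11. The 3 mbd6 arrays lay above the other 9, while mbd4 and mbd11 overlapped wild type. PRX52 rose by 2.00 (SE 0.27, adjusted p = 0.000741) in mbd6, or 4-fold, and its differences were 0.33 (SE 0.27, adjusted p = 0.836) in mbd4 and -0.27 (SE 0.27, adjusted p = 0.427) in mbd11. Set directly against mbd4, the mbd6 value was 1.67 (SE 0.27, adjusted p = 0.00834) higher.

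The other 2 lignin genes moved the opposite way in mbd6. AT2G41480 (PRX25) read 6.23, 6.43 and 6.17 on the wild-type arrays, 5.48, 5.90 and 5.78 on those of mbd4, 5.59, 5.24 and 5.36 on those of mbd6, and 6.28, 6.46 and 6.33 on those of mbd11. Its mbd4 and mbd6 arrays lay below wild type without overlap, and its mbd11 arrays lay among or just above the wild-type ones. It fell by 0.88 (SE 0.15, adjusted p = 0.00325) in mbd6, and differed by -0.55 (SE 0.15, adjusted p = 0.0909) in mbd4 and 0.08 (SE 0.15, adjusted p = 0.69) in mbd11. AT2G22420 (PRX17) read 6.63, 6.30 and 6.48 on the wild-type arrays, 5.91, 6.02 and 5.96 on those of mbd4, 5.81, 5.40 and 5.35 on those of mbd6, and 6.50, 5.67 and 6.02 on those of mbd11. The order was the same for mbd4 and mbd6, and mbd11 overlapped wild type. It fell by 0.95 (SE 0.20, adjusted p = 0.012) in mbd6, a call that did not hold when wild-type replicate 1 or 3 or mbd6 replicate 2 or 3 was left out (adjusted p from 0.0534 to 0.0661). Without mbd11 replicate 2, AT2G41480 was also called in mbd4 at -0.55 with adjusted p = 0.0261. Between mbd6 and mbd4, the differences were -0.32 (SE 0.15, adjusted p = 0.419) for AT2G41480 and -0.44 (SE 0.20, adjusted p = 0.398) for AT2G22420, neither called.

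**Figure D3:**
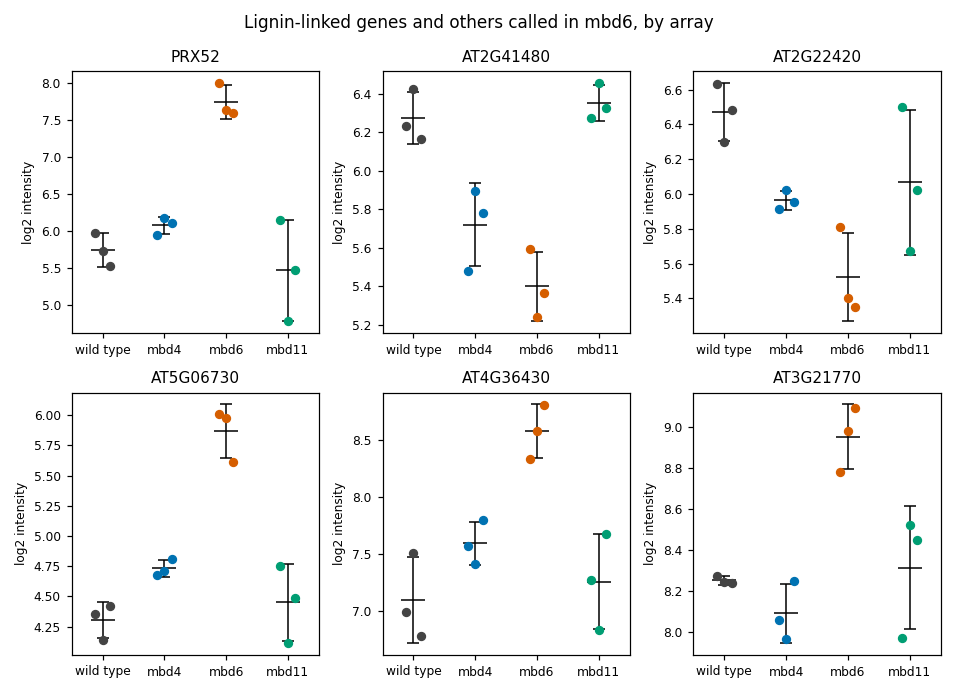
Log2 intensity (vertical axis, scaled for each panel) of each array (points), with group mean and SD (bars, n = 3), for 3 lignin-linked genes and 3 other genes called in mbd6, by genotype (horizontal axis). The mbd6 arrays of PRX52, AT5G06730, AT4G36430 and AT3G21770 lie above all other arrays, and those of AT2G41480 and AT2G22420 lie below all wild-type arrays.

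Of the 4 measured genes expressed in root hairs and the root epidermis, 1 was called, higher in mbd6 and lower in mbd11. AT5G17820, a target of UPB1 in the root, read 8.02, 8.03 and 7.88 on the wild-type arrays, 8.13, 8.03 and 7.99 on those of mbd4, 8.27, 8.61 and 8.54 on those of mbd6, and 7.39, 7.40 and 7.63 on those of mbd11. The mbd6 arrays all lay above wild type and the mbd11 arrays all below it, while mbd4 overlapped wild type. It rose by 0.50 (SE 0.13, adjusted p = 0.0434) in mbd6 and fell by 0.51 (SE 0.13, adjusted p = 0.0102) in mbd11. The mbd11 call held in 17 of 21 alternative fits, with differences from -0.58 to -0.35 and adjusted p up to 0.115. The mbd6 call was lost when wild-type replicate 1, 2 or 3, mbd4 replicate 1, 2 or 3 or mbd6 replicate 2 or 3 was left out (adjusted p from 0.0547 to 0.194), and with the replicate number as a block it had adjusted p = 0.0825.

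The other 3 root hair peroxidases had positive differences in mbd4 and mbd6 that did not pass the test. AT3G49960 read 6.51, 6.55 and 6.71 on the wild-type arrays, 7.20, 7.44 and 7.01 on those of mbd4, 7.06, 7.60 and 7.34 on those of mbd6, and 6.56, 7.12 and 5.97 on those of mbd11. Its mbd4 and mbd6 arrays stood above wild type without overlap, and its mbd11 arrays lay on both sides of wild type. The differences were 0.62 (SE 0.25, adjusted p = 0.322) in mbd4, 0.74 (SE 0.25, adjusted p = 0.109) in mbd6 and -0.04 (SE 0.25, adjusted p = 0.903) in mbd11. AT4G26010 differed by 0.28, 0.48 and -0.48 in mbd4, mbd6 and mbd11. AT1G30870 differed by 0.21, 0.43 and 0.31 in the same order, and none of these passed. In mbd6, calls appeared for AT3G49960 (adjusted p = 0.0113) and AT1G30870 (adjusted p = 0.0427) without mbd11 replicate 2, and for AT3G49960 (adjusted p = 0.0304) and AT4G26010 (adjusted p = 0.0414) without mbd11 replicate 3. In mbd11, AT4G26010 was at -0.72 with adjusted p = 0.00211 without mbd11 replicate 3. Beside these values, the 2 root hair markers measured of 17 listed, EXPA7 and EXPA18, which encode wall-loosening expansins, had a summed intensity of 96.8 to 109 in wild type, 89.9 to 123 in mbd4, 111 to 153 in mbd6 and 148 to 182 in mbd11. EXPA18 rose by 1.08 (SE 0.17, adjusted p = 0.000445) in mbd11, and its mbd6 difference was 0.55 (SE 0.17, adjusted p = 0.0867). The part of root hair number in the peroxidase values was not tested.

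Of the 4 measured genes known from responses to microbes or stress, 2 were called in at least 1 mutant, both higher. AT2G37130 (PRX21) read 8.48, 8.53 and 8.67 on the wild-type arrays, 9.04, 9.03 and 8.87 on those of mbd4, 9.22, 9.53 and 9.47 on those of mbd6, and 8.77, 9.09 and 8.59 on those of mbd11. All mbd4 and mbd6 arrays lay above wild type, and mbd11 overlapped it at the lower end. It rose by 0.84 (SE 0.15, adjusted p = 0.00462) in mbd6, while its differences were 0.42 (SE 0.15, adjusted p = 0.266) in mbd4 and 0.26 (SE 0.15, adjusted p = 0.191) in mbd11.

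AT5G39580 (PRX62) read 4.48, 4.54 and 4.25 on the wild-type arrays, 5.22, 5.30 and 5.72 on those of mbd4, 5.41, 5.16 and 5.04 on those of mbd6, and 5.08, 5.97 and 5.44 on those of mbd11. Every mutant array lay above every wild-type array. It rose by 0.99 (SE 0.22, adjusted p = 0.0314) in mbd4 and by 1.07 (SE 0.22, adjusted p = 0.00208) in mbd11, and its mbd6 difference of 0.78 had adjusted p = 0.05, which did not pass. The mbd4 call was lost when wild-type replicate 1, 2 or 3, mbd4 replicate 1, 2 or 3 or mbd6 replicate 2 was left out (adjusted p from 0.0558 to 0.171). The mbd6 difference passed without mbd4 replicate 3 (adjusted p = 0.0487), mbd11 replicate 1 (adjusted p = 0.0228) or mbd11 replicate 2 (adjusted p = 0.00457). With the 3′ to 5′ gap as a covariate, the mbd11 value was 0.80 with adjusted p = 0.0562.

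AT5G64120 (PRX71), which affects lignin and cell expansion and is also known from defence, read 7.69, 7.57 and 7.80 on the wild-type arrays, 8.86, 8.89 and 8.08 on those of mbd4, 8.23, 8.92 and 8.90 on those of mbd6, and 7.36, 6.57 and 7.66 on those of mbd11. The mbd4 and mbd6 arrays lay above wild type without overlap and with more scatter than wild type. Its differences were 0.92 (SE 0.29, adjusted p = 0.168) in mbd4, 1.00 (SE 0.29, adjusted p = 0.0646) in mbd6 and -0.49 (SE 0.29, adjusted p = 0.192) in mbd11, none of them called. Without mbd11 replicate 2 the first 2 had adjusted p = 0.0249 and 0.00824, and without mbd11 replicate 3 the mbd6 one had 0.0443. AT1G14550, a gene induced by microbial patterns, was dim on all arrays but 1 and was not called, with differences from 0.03 in mbd4 to 0.38 in mbd11.

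The remaining 30 measured genes have no role assigned here. In mbd4, 3 of the 30 were called higher and 1 lower, beside 1.53% and 0.769% of all probe sets. In mbd6, 9 were called higher and 3 lower, beside 4% and 2.91%. In mbd11, 4 were called higher and 8 lower, beside 20.4% and 19.7%. AT5G19890 was the only one of the 47 genes called higher in all 3 mutants, where 0.73% of all probe sets were. It read 5.79, 5.95 and 6.04 on the wild-type arrays, 7.62, 7.56 and 7.89 on those of mbd4, 8.21, 8.26 and 8.01 on those of mbd6, and 6.63, 7.29 and 7.16 on those of mbd11. Every mutant array lay above every wild-type array, with mbd11 nearest to wild type and mbd6 farthest. AT5G19890 rose by 1.77 (SE 0.18, adjusted p = 0.000163) in mbd4, or 3.4-fold, by 2.24 (SE 0.18, adjusted p = 1.99e-05) in mbd6, or 4.71-fold, and by 1.10 (SE 0.18, adjusted p = 0.000454) in mbd11, or 2.14-fold.

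In total, 5 of the 47 genes were called higher in both mbd4 and mbd6, as were 1.12% of all probe sets, and both comparisons use the same wild-type arrays. The 5 were Prx37, AT4G11290, AT5G19890, AT1G49570 and AT4G08780. AT1G49570 read 7.28, 7.55 and 7.44 on the wild-type arrays, 8.62, 8.55 and 8.72 on those of mbd4, 9.31, 9.17 and 8.94 on those of mbd6, and 7.36, 6.91 and 7.61 on those of mbd11. Its mbd4 arrays were above wild type, its mbd6 arrays were higher still, and mbd11 overlapped wild type. AT1G49570 rose by 1.21 (SE 0.18, adjusted p = 0.00262) in mbd4 and by 1.72 (SE 0.18, adjusted p = 0.000124) in mbd6. The mbd11 difference was -0.13 (SE 0.18, adjusted p = 0.564). AT4G08780 read 5.07, 5.43 and 5.29 on the wild-type arrays, 6.42, 6.60 and 6.63 on those of mbd4, 6.23, 6.27 and 6.59 on those of mbd6, and 4.35, 3.94 and 5.15 on those of mbd11. The arrays of mbd4 and mbd6 did not overlap wild type, and 1 of the 3 mbd11 arrays did. AT4G08780 rose by 1.29 (SE 0.25, adjusted p = 0.0143) in mbd4 and by 1.10 (SE 0.25, adjusted p = 0.0168) in mbd6, and fell by 0.78 (SE 0.25, adjusted p = 0.0237) in mbd11. The mbd4 call was lost when wild-type replicate 1 or 3 or mbd4 replicate 2 or 3 was left out (adjusted p from 0.0656 to 0.0865), and the mbd6 call when wild-type replicate 1 or 3 or mbd6 replicate 3 was left out (adjusted p from 0.0638 to 0.084). The mbd11 call was lost when wild-type replicate 2 or 3 or mbd11 replicate 1 or 2 was left out (adjusted p from 0.0559 to 0.0847), with a difference of -0.51 without mbd11 replicate 2.

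Several genes without an assigned role were called in mbd6 and not in mbd4. AT5G06730 read 4.36, 4.14 and 4.42 on the wild-type arrays, 4.68, 4.71 and 4.81 on those of mbd4, 6.01, 5.98 and 5.61 on those of mbd6, and 4.75, 4.12 and 4.49 on those of mbd11. The mbd6 arrays stood well above the rest, and the mbd4 arrays lay between them and wild type. AT5G06730 rose by 1.56 (SE 0.17, adjusted p = 0.0002) in mbd6, or 2.95-fold, and its mbd4 difference was 0.42 (SE 0.17, adjusted p = 0.357). The mbd6 arrays exceeded the mbd4 arrays by 1.13 (SE 0.17, adjusted p = 0.00563). AT4G36430 read 6.996, 7.51 and 6.78 on the wild-type arrays, 7.57, 7.42 and 7.79 on those of mbd4, 8.33, 8.58 and 8.81 on those of mbd6, and 7.27, 6.83 and 7.67 on those of mbd11. Only the mbd6 arrays lay clear of wild type. AT4G36430 rose by 1.48 (SE 0.23, adjusted p = 0.00212) in mbd6, and its difference between mbd6 and mbd4 was 0.98 (SE 0.23, adjusted p = 0.0531), which did not pass.

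AT1G34510 read 4.44, 4.62 and 4.14 on the wild-type arrays, 5.08, 5.10 and 5.36 on those of mbd4, 5.71, 5.81 and 5.83 on those of mbd6, and 4.62, 5.23 and 5.61 on those of mbd11. All mutant arrays lay at or above the highest wild-type array, with mbd6 highest. AT1G34510 rose by 1.38 (SE 0.22, adjusted p = 0.00202) in mbd6 and by 0.76 (SE 0.22, adjusted p = 0.0153) in mbd11, and its mbd4 difference was 0.78 (SE 0.22, adjusted p = 0.101). The mbd11 call was lost when wild-type replicate 3 was left out (adjusted p = 0.0702), and the mbd11 value was 0.41 with adjusted p = 0.257 when the 3′ to 5′ gap was a covariate. In mbd4 it had adjusted p = 0.0386 without mbd11 replicate 2 and 0.039 without mbd11 replicate 3. AT3G21770 read 8.28, 8.24 and 8.24 on the wild-type arrays, 8.06, 7.96 and 8.25 on those of mbd4, 8.78, 8.98 and 9.09 on those of mbd6, and 7.97, 8.52 and 8.45 on those of mbd11. Its mbd6 arrays lay above all others. AT3G21770 rose by 0.70 (SE 0.16, adjusted p = 0.0195) in mbd6, a call that did not hold when wild-type replicate 1, 2 or 3 or mbd6 replicate 2 or 3 was left out (adjusted p from 0.0687 to 0.0939). PRXR1 (AT4G21960), the probe set with the highest wild-type signal among the 47, read 12.68, 12.76 and 12.79 on the wild-type arrays, 13.002, 12.87 and 12.61 on those of mbd4, 13.42, 13.39 and 13.28 on those of mbd6, and 12.05, 11.99 and 11.96 on those of mbd11. The mbd6 arrays lay above wild type and the mbd11 arrays below it, each without overlap. PRXR1 rose by 0.62 (SE 0.13, adjusted p = 0.0112) in mbd6 and fell by 0.74 (SE 0.13, adjusted p = 0.000759) in mbd11. The mbd6 call was lost when wild-type replicate 1 or mbd6 replicate 1 was left out (adjusted p from 0.0547 to 0.0618), and quantile normalisation gave -0.49 in mbd11.

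The 5 genes called lower in mbd6 were AT5G15180, AT3G01190, AT2G39040 and the lignin genes AT2G41480 and AT2G22420. AT5G15180 read 5.12, 4.97 and 4.89 on the wild-type arrays, 4.32, 4.59 and 4.74 on those of mbd4, 4.15, 3.81 and 3.91 on those of mbd6, and 4.87, 4.05 and 5.40 on those of mbd11. The mbd6 arrays lay below all wild-type and mbd4 arrays, mbd4 lay between these groups, and mbd11 scattered on both sides of wild type. AT5G15180 fell by 1.04 (SE 0.27, adjusted p = 0.0333) in mbd6, a call that did not hold when wild-type replicate 1, 2 or 3, mbd4 replicate 2 or mbd6 replicate 1, 2 or 3 was left out (adjusted p from 0.0541 to 0.133). AT3G01190 read 7.31, 7.22 and 7.21 on the wild-type arrays, 6.74, 6.91 and 6.83 on those of mbd4, 6.32, 6.45 and 6.39 on those of mbd6, and 7.19, 5.996 and 6.61 on those of mbd11. All mutant arrays were below all wild-type arrays. AT3G01190 fell by 0.86 (SE 0.23, adjusted p = 0.0389) in mbd6 and by 0.65 (SE 0.23, adjusted p = 0.037) in mbd11. The mbd6 call was lost when wild-type replicate 1, 2 or 3, mbd4 replicate 1, 2 or 3 or mbd6 replicate 1, 2 or 3 was left out (adjusted p from 0.0567 to 0.142). The mbd11 call was lost when wild-type replicate 1, 2 or 3, mbd4 replicate 1 or 2, mbd6 replicate 1, 2 or 3 or mbd11 replicate 2 or 3 was left out (adjusted p from 0.0502 to 0.0993), and that difference was -0.35 without mbd11 replicate 2.

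AT2G39040 read 4.88, 5.19 and 5.26 on the wild-type arrays, 4.60, 4.53 and 4.17 on those of mbd4, 4.04, 4.39 and 4.49 on those of mbd6, and 4.58, 4.82 and 4.46 on those of mbd11. Every mutant array lay below every wild-type array. AT2G39040 fell by 0.80 (SE 0.18, adjusted p = 0.0156) in mbd6 and by 0.49 (SE 0.18, adjusted p = 0.0423) in mbd11, and its mbd4 difference was -0.67 (SE 0.18, adjusted p = 0.077). The mbd6 call was lost when wild-type replicate 2 or 3 or mbd6 replicate 1 was left out (adjusted p from 0.0724 to 0.0855) and the mbd11 call when wild-type replicate 2 or 3, mbd4 replicate 1 or 2, mbd6 replicate 2 or 3 or mbd11 replicate 1 or 3 was left out (adjusted p from 0.0505 to 0.14). In mbd4 it had adjusted p = 0.0195 without mbd11 replicate 2. AT2G18980, the gene called lower in mbd4, read 7.84, 7.62 and 7.94 on the wild-type arrays, 7.06, 7.12 and 6.97 on those of mbd4, 6.97, 7.30 and 7.47 on those of mbd6, and 6.68, 6.24 and 6.64 on those of mbd11. The mutant arrays all lay below wild type, with mbd11 lowest. AT2G18980 fell by 0.75 (SE 0.17, adjusted p = 0.0344) in mbd4 and by 1.28 (SE 0.17, adjusted p = 9.90e-05) in mbd11, and its mbd6 difference was -0.56 (SE 0.17, adjusted p = 0.0715). The mbd4 call was lost when wild-type replicate 1, 2 or 3, mbd4 replicate 1, 2 or 3 or mbd6 replicate 2 was left out (adjusted p from 0.0603 to 0.189), and with the replicate number as a block it had adjusted p = 0.0562. Without mbd11 replicate 2, its mbd6 difference had adjusted p = 0.0134.

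The mbd11 calls went with the wild-type signal of the probe set, as those of all probe sets did. The mbd11 arrays also had a narrower range of signal. The interquartile range over all probe sets, a measure of that range, was 2.83 to 3.63 on them and 3.83 to 3.94 on the other arrays. Over the peroxidase genes it was 2.16 to 2.84 and 3.15 to 4.09. The part of this narrower range in the mbd11 differences was not tested. Of the 18 peroxidase genes with a mean wild-type signal under 5, 5 were called higher in mbd11 and 0 lower, where 27% and 1.28% of all probe sets of that class were. Of the 12 between 5 and 7, 1 was called higher and 3 lower, against 19.5% and 18.3%. Of the 17 over 7, 0 were called higher and 6 lower, against 14.5% and 39.5%. The median difference of all probe sets ran from 0.37 in the dimmest class to -0.32 in the brightest, and that of the peroxidase genes from 0.23 to -0.48. By limma's unadjusted p under 0.05, 0 genes of the dimmest class were lower in mbd11 and 0 of the brightest were higher as well. The share of all probe sets was not counted at that threshold, so nothing particular to the peroxidase genes is drawn from it.

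**Figure D4:**
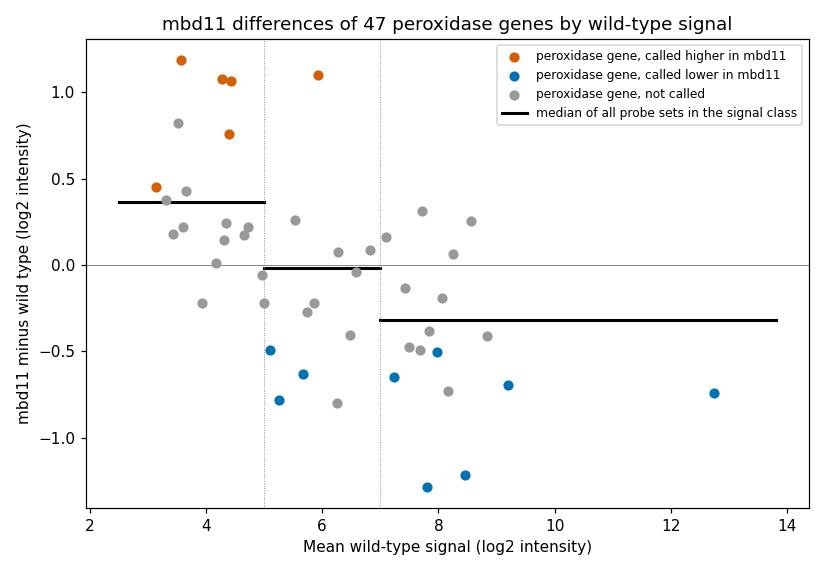
Difference between mbd11 and wild type (vertical axis, log2 intensity) against the mean wild-type signal (horizontal axis, log2 intensity) for the 47 peroxidase genes (points, coloured by call). Horizontal bars give the median of all probe sets under 5, from 5 to 7 and over 7 (dotted lines). 5 of the 6 genes called higher lie under 5 and 6 of the 9 called lower lie over 7.

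Of the mbd11 calls, AT5G64110 and AT5G58400 were among those called in mbd11 and in no other mutant. AT5G58400 read 4.26, 4.38 and 4.17 on the wild-type arrays, 4.27, 3.91 and 3.72 on those of mbd4, 3.90, 4.11 and 4.09 on those of mbd6, and 5.02, 5.95 and 5.06 on those of mbd11. Its mbd11 arrays lay above all 9 others. AT5G58400 rose by 1.08 (SE 0.23, adjusted p = 0.00271) in mbd11. AT1G71695 read 9.22, 9.21 and 9.17 on the wild-type arrays, 9.03, 9.17 and 9.25 on those of mbd4, 9.48, 9.46 and 9.33 on those of mbd6, and 8.69, 8.61 and 8.21 on those of mbd11. The mbd11 arrays lay below all 9 others, and the mbd6 arrays a little above wild type. AT1G71695 fell by 0.70 (SE 0.14, adjusted p = 0.00221) in mbd11. AT2G34060 read 5.63, 5.77 and 5.61 on the wild-type arrays, 5.60, 5.97 and 5.58 on those of mbd4, 5.11, 5.21 and 5.35 on those of mbd6, and 5.26, 4.74 and 5.13 on those of mbd11. Its mbd6 and mbd11 arrays lay below wild type. AT2G34060 fell by 0.63 (SE 0.16, adjusted p = 0.00903) in mbd11, and its mbd6 difference was -0.45 (SE 0.16, adjusted p = 0.157), with adjusted p = 0.0313 without mbd11 replicate 2. AT4G25980, the dimmest of the 47 probe sets in wild type, read 3.10, 3.25 and 3.10 on the wild-type arrays, 3.06, 3.29 and 3.001 on those of mbd4, 3.18, 3.10 and 3.20 on those of mbd6, and 3.71, 3.68 and 3.41 on those of mbd11. Its mbd11 arrays lay above the other 9 by a small margin. AT4G25980 rose by 0.45 (SE 0.13, adjusted p = 0.0171) in mbd11, but all its values lie under 4, the call was lost when wild-type replicate 1 or 3 was left out (adjusted p from 0.0605 to 0.0615), and quantile normalisation gave 0.14.

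Signals of different probe sets do not rank transcript amounts, because probes bind with different strength. Among the 47, the 5 highest wild-type signals belonged to PRXR1, AT1G71695, AT4G30170, AT2G37130 and AT5G64110. AT4G30170 read 8.99, 8.49 and 9.03 on the wild-type arrays, 9.15, 9.20 and 9.31 on those of mbd4, 9.02, 9.39 and 9.28 on those of mbd6, and 8.48, 8.07 and 8.72 on those of mbd11. Its mbd4 arrays lay above wild type, mbd6 overlapped it at 1 array, and mbd11 overlapped it as well. The differences were 0.38 (SE 0.19, adjusted p = 0.53) in mbd4, 0.39 (SE 0.19, adjusted p = 0.352) in mbd6 and -0.41 (SE 0.19, adjusted p = 0.103) in mbd11, and the last was -0.56 with adjusted p = 0.0347 without mbd11 replicate 3 and -0.24 with adjusted p = 0.284 without mbd11 replicate 2. The 5 lowest belonged to AT4G25980, AT1G14550, AT5G19880, AT4G17690 and AT3G50990. AT4G17690 read 3.51, 3.34 and 3.72 on the wild-type arrays, 3.63, 3.54 and 3.45 on those of mbd4, 3.35, 3.55 and 3.26 on those of mbd6, and 3.54, 5.91 and 3.58 on those of mbd11. A single array, mbd11 replicate 2, stood apart, and no difference was called. AT1G14550 likewise had 1 array apart, and read 3.39, 3.21 and 3.35 on the wild-type arrays, 3.28, 3.36 and 3.39 on those of mbd4, 3.37, 3.33 and 3.79 on those of mbd6, and 4.61, 3.31 and 3.16 on those of mbd11.

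The other genes that were never called over all 12 arrays gave smaller or more scattered values. AT3G28200 differed from wild type by -0.73 (SE 0.28, adjusted p = 0.052) in mbd11. It passed without mbd11 replicate 1, at -1.01 with adjusted p = 0.00946, and without mbd11 replicate 3, at -0.88 with adjusted p = 0.0356, and was -0.30 with adjusted p = 0.0858 without mbd11 replicate 2. AT1G68850 differed by 0.60 (SE 0.40, adjusted p = 0.728) in mbd4. All its mbd4 arrays lay above all wild-type arrays, and this difference passed in 3 of 22 alternative fits, with adjusted p down to 0.0129. Its SD was 1.13 in mbd11, 0.21 in mbd4 and 0.06 in wild type. In mbd11 it differed by -0.06 (SE 0.40, adjusted p = 0.915). That mbd11 difference was -0.70 with adjusted p = 0.00888 without mbd11 replicate 3 and 0.35 with adjusted p = 0.433 without mbd11 replicate 2. AT5G14130 differed by 0.42 (SE 0.25, adjusted p = 0.509) in mbd6 and 0.17 (SE 0.25, adjusted p = 0.593) in mbd11. When mbd11 replicate 2 was left out, it had adjusted p = 0.0454 in mbd6 and 0.00786 in mbd11, at 0.42 and 0.54, and the mbd11 value was -0.01 without mbd11 replicate 1 or 3. AT2G24800 differed by -0.51 (SE 0.19, adjusted p = 0.154) in mbd6. AT4G33420 read 7.83, 7.89 and 7.80 on the wild-type arrays and 8.25, 6.18 and 7.93 on those of mbd11. Its mbd11 arrays lay on both sides of wild type, with replicate 2 far below. Over all 12 arrays, the differences of AT1G24110, AT2G35380, AT2G43480, AT3G03670 and AT5G19880 were between -0.39, for AT3G03670 in mbd4, and 0.26, for AT2G35380 in mbd11. In mbd11, AT2G35380 ranged from -0.12 to 0.64 over the alternative fits and passed in 1 of 21 (adjusted p = 0.015). AT2G43480 ranged there from -0.55 to -0.006 and passed in 1 of 20 (adjusted p = 0.00948).

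Set against each other, mbd6 and mbd4 differed in 3 of the 47 genes, all higher in mbd6, or 6.38% where 2.05% of all probe sets were called, 0.95% higher and 1.1% lower. They were PRX52, AT5G06730 and AT3G21770. The AT3G21770 difference was 0.86 (SE 0.16, adjusted p = 0.0171), a call that did not hold when mbd4 replicate 1 or 2 or mbd6 replicate 2 or 3 was left out (adjusted p from 0.0797 to 0.097). Leaving out mbd11 replicate 2 raised the number of genes called between mbd6 and mbd4 to 12, beside 7.2% of all probe sets, and leaving out mbd11 replicate 3 raised it to 5, beside 3.18%. The genes called higher in both mutants were not called between them over all 12 arrays. For Prx37 the difference between mbd6 and mbd4 was 0.12 (SE 0.36, adjusted p = 0.999), for AT4G11290 0.06 (SE 0.23, adjusted p = 0.999) and for AT5G19890 0.47 (SE 0.18, adjusted p = 0.268). It was 0.51 (SE 0.18, adjusted p = 0.209) for AT1G49570 and -0.19 (SE 0.25, adjusted p = 0.981) for AT4G08780. Every mbd6 array of AT1G49570 and AT5G19890 lay above every mbd4 array, and their differences passed in 4 and 3 of 22 alternative fits.

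Between mbd11 and mbd4, 20 genes were called, 4 higher and 16 lower in mbd11, or 42.6% beside 42.3% of all probe sets. Between mbd11 and mbd6, 28 were called, 7 higher and 21 lower, or 59.6% beside 42.4%. Of all probe sets, 22.5% were called higher and 19.8% lower in the first of these comparisons, and 22.5% and 19.9% in the second. With each array centred on its median, the splits of the 47 genes were 5 higher and 15 lower against mbd4, and 8 higher and 19 lower against mbd6, while those of all probe sets moved from 5116 higher and 4505 lower to 6695 and 3740 against mbd4, and from 5120 and 4516 to 6954 and 3762 against mbd6. The 3 lowest values against mbd4 were -3.02 (SE 0.36, adjusted p = 6.00e-05) for Prx37, -2.07 (SE 0.25, adjusted p = 6.29e-05) for AT4G08780 and -1.95 (SE 0.23, adjusted p = 5.38e-05) for AT4G11290. Against mbd6 they were -3.14 (SE 0.36, adjusted p = 4.00e-05) for Prx37, -2.27 (SE 0.27, adjusted p = 5.83e-05) for PRX52 and -2.01 (SE 0.23, adjusted p = 3.73e-05) for AT4G11290. AT5G58400 was the gene with the highest value in mbd11 against both, at 1.38 (SE 0.23, adjusted p = 0.000562) above mbd4 and 1.31 (SE 0.23, adjusted p = 0.000755) above mbd6. AT2G41480, one of the lignin genes lower in mbd6, was 0.95 (SE 0.15, adjusted p = 0.000384) higher in mbd11 than in mbd6.

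By the RefSeq gene order of assembly TAIR10.1, 9 pairs of the 60 loci neighbour each other, and in 4 of these pairs both genes were measured. Prx37 and AT4G08780 on chromosome 4 were both called higher in mbd4 and in mbd6. Whether the probes of such close relatives read only their own transcript was not tested. AT5G19880 and AT5G19890 on chromosome 5 differed. AT5G19880 read 3.52, 3.41 and 3.36 on the wild-type arrays, 3.36, 3.36 and 3.19 on those of mbd4, 3.38, 3.57 and 3.48 on those of mbd6, and 3.69, 3.67 and 3.47 on those of mbd11. It was dim on all 12 arrays and not called, with differences of -0.12, 0.05 and 0.18, beside the calls for AT5G19890 in all 3 mutants.

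The other neighbouring run, AT5G64100, AT5G64110 and AT5G64120, holds 3 measured genes. AT5G64100 read 8.06, 8.22 and 7.91 on the wild-type arrays, 8.60, 8.81 and 8.30 on those of mbd4, 8.80, 9.26 and 9.12 on those of mbd6, and 8.20, 7.74 and 7.68 on those of mbd11. Its mbd4 and mbd6 arrays lay above wild type, and mbd11 overlapped it. AT5G64100 rose by 1.00 (SE 0.19, adjusted p = 0.0061) in mbd6, and its differences were 0.51 (SE 0.19, adjusted p = 0.275) in mbd4 and -0.19 (SE 0.19, adjusted p = 0.418) in mbd11. AT5G64110 read 8.43, 8.36 and 8.58 on the wild-type arrays, 8.55, 8.39 and 8.31 on those of mbd4, 8.39, 8.48 and 8.34 on those of mbd6, and 7.17, 7.45 and 7.12 on those of mbd11. The mbd11 arrays lay far below the other 9, which overlapped. AT5G64110 fell by 1.21 (SE 0.13, adjusted p = 3.57e-05) in mbd11, and its differences were -0.04 (SE 0.13, adjusted p = 1) in mbd4 and -0.06 (SE 0.13, adjusted p = 0.971) in mbd6. The difference between mbd11 and mbd6 for AT5G64120, the third of the run, was -1.49 (SE 0.29, adjusted p = 0.00177).

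**Figure D5:**
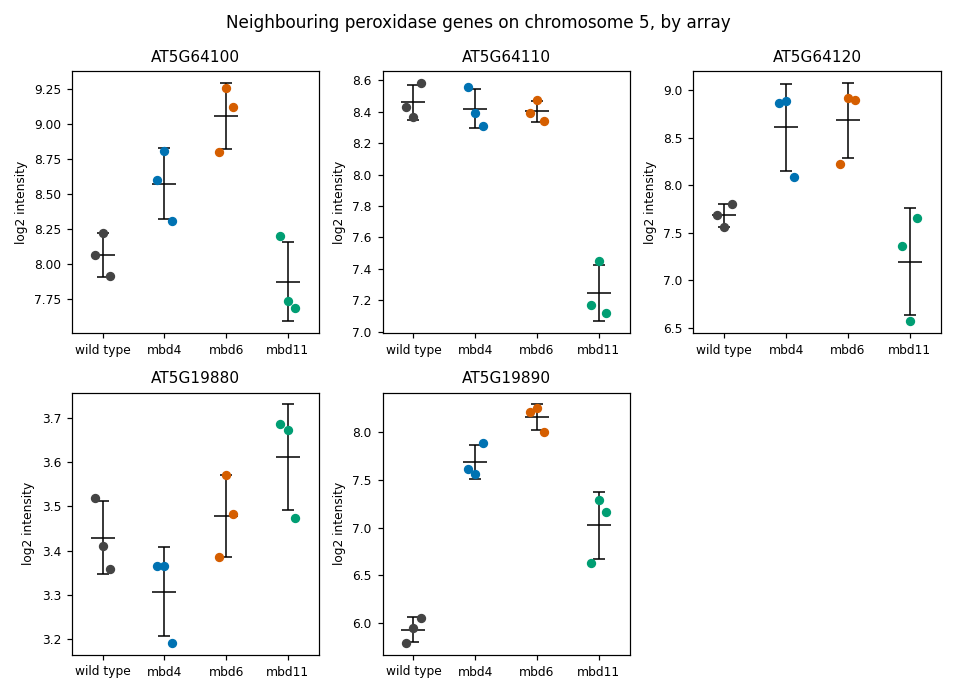
Log2 intensity (vertical axis, scaled for each panel) of each array (points), with group mean and SD (bars, n = 3), for 2 runs of neighbouring peroxidase genes on chromosome 5, by genotype (horizontal axis). AT5G64110 is low in mbd11 alone, AT5G64100 is high in mbd6, and AT5G19880 stays under 4 where AT5G19890 rises in all 3 mutants.

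The 4 probe sets that list several genes cannot be given to 1 gene. The one for AT4G37530 and AT4G37520 read 7.75, 7.86 and 8.02 on the wild-type arrays, 8.68, 8.51 and 8.65 on those of mbd4, 9.48, 8.93 and 8.89 on those of mbd6, and 7.16, 7.15 and 7.43 on those of mbd11. The mbd4 and mbd6 arrays lay above wild type and the mbd11 arrays below it. Its differences were 0.74 (SE 0.17, adjusted p = 0.0386), 1.23 (SE 0.17, adjusted p = 0.000776) and -0.63 (SE 0.17, adjusted p = 0.0109), all called. The probe set for AT2G38390 and AT2G38380 read 8.28, 8.66 and 8.11 on the wild-type arrays, 9.17, 8.97 and 9.37 on those of mbd4, 9.20, 9.63 and 9.79 on those of mbd6, and 6.85, 7.21 and 7.92 on those of mbd11. It followed the same order, with differences of 0.82 (SE 0.26, adjusted p = 0.16), 1.19 (SE 0.26, adjusted p = 0.0138) and -1.02 (SE 0.26, adjusted p = 0.00747), of which the last 2 were called. The probe set for AT2G18150 and AT2G18140 read 6.87, 6.85 and 7.15 on the wild-type arrays, 7.10, 6.75 and 6.98 on those of mbd4, 7.76, 8.14 and 8.19 on those of mbd6, and 6.76, 7.09 and 7.54 on those of mbd11. Only the mbd6 arrays lay clear of wild type, at a difference of 1.08 (SE 0.20, adjusted p = 0.00558). The probe set for AT3G42570 and AT3G17070 was not called in any mutant against wild type, with differences of -0.51, 0.13 and 0.14.

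Genes that work with class III peroxidases were read from 9 lists, of which only 21 of 145 genes had a probe set of their own in the annotation used. Of the peroxidase regulators, 2 of 6 were measured. UPB1, a transcription factor known to repress peroxidase genes where root cells pass from division to elongation, read 7.60, 7.89 and 7.74 on the wild-type arrays, 7.40, 7.32 and 7.99 on those of mbd4, 7.14, 6.99 and 7.12 on those of mbd6, and 9.28, 9.08 and 9.21 on those of mbd11. Its mbd6 arrays were below wild type and its mbd11 arrays far above it. UPB1 fell by 0.66 (SE 0.17, adjusted p = 0.0388) in mbd6, a call that did not hold when wild-type replicate 1, 2 or 3, mbd4 replicate 1 or mbd6 replicate 1, 2 or 3 was left out (adjusted p from 0.0518 to 0.164), and rose by 1.45 (SE 0.17, adjusted p = 5.64e-05) in mbd11. Of the UPB1 targets measured, AT5G17820 was called higher in mbd6 and lower in mbd11, and AT4G11290 higher in mbd4 and mbd6. AT4G16270 was called in none. The AT5G17820 calls held in 12 of 22 alternative fits in mbd6 and 17 of 21 in mbd11. AT4G11290 was not called in mbd11, at -0.22 (SE 0.23, adjusted p = 0.439). The part of UPB1 in these values was not tested. In mbd4 UPB1 was not called, at -0.17 (SE 0.17, adjusted p = 0.907). The other measured regulator, AT5G47390, was not called.

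Ascorbate peroxidases of the chloroplast use hydrogen peroxide too but belong to another family. Of the list of catalases, ascorbate and glutathione peroxidases, 2 of 19 were measured. SAPX, the stromal form, read 8.49, 8.32 and 8.22 on the wild-type arrays, 9.15, 9.24 and 9.16 on those of mbd4, 9.42, 9.37 and 9.68 on those of mbd6, and 7.94, 8.32 and 8.06 on those of mbd11. Its mbd4 and mbd6 arrays lay above wild type, and mbd11 overlapped it. SAPX rose by 0.84 (SE 0.14, adjusted p = 0.00722) in mbd4 and by 1.15 (SE 0.14, adjusted p = 0.000414) in mbd6. TAPX, the thylakoid form, read 9.56, 9.58 and 9.78 on the wild-type arrays, 9.17, 9.39 and 9.35 on those of mbd4, 8.90, 9.08 and 9.12 on those of mbd6, and 9.15, 8.94 and 9.20 on those of mbd11. All mutant arrays lay below wild type. TAPX fell by 0.61 (SE 0.13, adjusted p = 0.0157) in mbd6 and by 0.55 (SE 0.13, adjusted p = 0.00656) in mbd11, and its mbd4 difference was -0.34 (SE 0.13, adjusted p = 0.319). The mbd6 call of TAPX was lost when wild-type replicate 3 or mbd6 replicate 1 was left out (adjusted p from 0.0828 to 0.0935), and the mbd4 call of SAPX when wild-type replicate 3 was left out (adjusted p = 0.0537). Without mbd11 replicate 2, the mbd11 difference of SAPX was -0.34 with adjusted p = 0.0489.

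Of the monolignol synthesis list, 2 of 26 genes were measured. HCT, an enzyme of the pathway that supplies lignin precursors, read 9.66, 9.68 and 9.78 on the wild-type arrays, 9.70, 9.65 and 9.29 on those of mbd4, 9.47, 9.59 and 9.53 on those of mbd6, and 8.55, 8.30 and 8.29 on those of mbd11. It was lower on all mbd11 arrays than on the other 9. HCT fell by 1.33 (SE 0.14, adjusted p = 2.63e-05) in mbd11, and its differences were -0.16 in mbd4 and -0.17 in mbd6. CCR2 was not called. Of the 17 laccases, which also polymerise lignin, only LAC16 was measured, and it was not called. Of the Casparian strip builders, 4 of 13 were measured, and AT4G13580 was called, at -0.77 (SE 0.17, adjusted p = 0.0176) in mbd6 and 1.05 (SE 0.17, adjusted p = 0.000516) in mbd11, the mbd6 call being lost when wild-type replicate 1, 2 or 3 was left out (adjusted p from 0.0657 to 0.0734). Of 17 sources of superoxide and hydrogen peroxide, 3 were measured, and AT4G11230 was called in mbd11 at 0.52 (SE 0.18, adjusted p = 0.0405). That call was lost when wild-type replicate 1, 2 or 3, mbd4 replicate 1 or 2, mbd6 replicate 1 or 3 or mbd11 replicate 1 or 2 was left out (adjusted p from 0.051 to 0.105), with 0.32 without mbd11 replicate 2. All 12 of its values were under 4, so raising values under 4 to 4 left no difference, with adjusted p = 1. Of 11 xylem and fibre wall markers, IRX15 alone was measured, and it was called in mbd11 at 0.43 (SE 0.15, adjusted p = 0.0422), with 0.26 without mbd11 replicate 2. The IRX15 call was lost when wild-type replicate 1, 2 or 3, mbd4 replicate 1, 2 or 3, mbd6 replicate 1, 2 or 3 or mbd11 replicate 2 was left out (adjusted p from 0.0509 to 0.109). In mbd4, SAPX was the only gene called of the 21 measured over the 9 lists, beside 2.3% of all probe sets. The calls over the lists in mbd6 and mbd11 stand beside 6.91% and 40.2% of all probe sets.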

How the data were processed

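Total RNA of whole seedlings was measured on 12 arrays, 3 for each of 4 genotypes. The deposited values are log2 intensities made by the authors with RMA in R 2.11, per the submitters' processing notes, and the biotin label was made from total RNA per the labels' protocols. For scan or labelling batches, nothing was given in the sources used. Of 22810 probe sets, 64 Affymetrix controls were left out and 22746 tested with limma 3.58.1 in R 4.3.3: lmFit with 1 mean per genotype over all 12 arrays, contrasts and eBayes, two-sided, Benjamini-Hochberg adjustment within each of 6 comparisons, threshold 0.05. No further normalisation or filter was applied, and the number of arrays limits the precision. Probe sets were assigned to genes through the platform annotation, and gene order came from RefSeq (TAIR10.1). Each of the 47 genes had 1 probe set of its own, so averaging several per gene changed nothing and was not run. The fit was tested on simulated data with the same spread in all genotypes and changes added in mbd6 only. That test could not check the fit under the wider spread of mbd11.

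The peroxidase genes, role groups and 9 other lists were chosen with earlier results of these data known. Full values were given, by rule, for up to 10 genes with the largest rise and 10 with the largest fall among those called in each mutant, up to 3 per direction between mutants, genes called alike in several mutants, the 5 brightest and 5 dimmest probe sets, up to 4 per role group and chromosomal neighbours. Alternatives were leaving out each array, a replicate block, fewer arrays or weights in the fit, array scaling, dim values, the 3′ to 5′ gap and an intensity trend in eBayes.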

Additional observations from a re-analysis of the deposited data

How the results depend on the processing

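Of the calls against wild type, 4 of 7 in mbd4, 11 of 19 in mbd6 and 6 of 15 in mbd11 passed under every one of the alternatives in which the gene was tested, as did 1 of 3 between mbd6 and mbd4, 8 of 20 between mbd11 and mbd4 and 17 of 28 between mbd11 and mbd6. With only the 6 arrays compared, the counts were 17 in mbd4, 29 in mbd6, 8 in mbd11, 12 between mbd6 and mbd4 and 11 between mbd11 and mbd4, beside 8.81%, 19.9%, 22.4%, 7.82% and 19.8% of all probe sets. Between mbd11 and mbd6 that count was 19, beside 22.3%. Weighting each array by its genotype's spread gave 18, 29, 8, 16 and 11, beside 10.3%, 21.1%, 23.7%, 11% and 22.7%, and 18 between mbd11 and mbd6, beside 23.7%. Without all mbd11 arrays the counts were 17 in mbd4 (9.72%), 28 in mbd6 (18.1%) and 15 between mbd6 and mbd4 (10.9%). The 3′ to 5′ covariate and the eBayes trend each gave 5 between mbd6 and mbd4 (2.13% and 2.51%). With that covariate, the counts against wild type were 6 in mbd4 (2.21%), 20 in mbd6 (7.56%) and 10 in mbd11 (27.6%). Between mbd11 and mbd4 it gave 18 (34.2%), and between mbd11 and mbd6 23 (29.6%). Fits on fewer arrays estimate the spread without the others. Leaving out 1 array gave 4 to 11, 12 to 27, 10 to 19, 2 to 12, 17 to 24 and 22 to 31 calls in the order mbd4, mbd6, mbd11, mbd6 against mbd4, mbd11 against mbd4 and mbd11 against mbd6, while the shares of all probe sets were 1.14% to 6.44%, 3.55% to 13.9%, 30.4% to 47.3%, 0.69% to 7.2%, 30.2% to 49.1% and 30.7% to 48.9%. AT4G33420 in mbd11 was not called against mbd4, at -0.20 (SE 0.39, adjusted p = 0.699), or against mbd6, at -0.16 (SE 0.39, adjusted p = 0.746). These differences were -0.59 and -0.56 without mbd11 replicate 1. Without mbd11 replicate 2 they turned to 0.44 (adjusted p = 0.0412) and 0.47 (adjusted p = 0.0299), and the cause was not tested. With the replicate number as a block the counts were 5, 17, 15, 3, 20 and 28 in the same order. Of all probe sets, 1.91%, 5.98%, 38.7%, 1.38%, 40.6% and 40.5% were called there. The numbers were not used as pairs, since same-numbered arrays deviated together with correlations of -0.38 to 0.22 and 2 of 12 arrays correlated best with their own number.

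The 3 arrays per genotype and dim probe sets limit what can be seen: 18 of the 47 genes had a wild-type signal under 5, where a change in transcript moves the signal less.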
